A study of Mus musculus with 12 samples.

Results

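The 10 genes described here encode chondroitin sulfate proteoglycans of the brain matrix and the proteins that bind them. They are the lecticans Acan, Bcan, Ncan and Vcan, the tenascins Tnr and Tnc, the hyaluronan and proteoglycan link proteins Hapln1 and Hapln2, and the membrane-spanning proteoglycans Cspg4 (NG2) and Cspg5 (neuroglycan C). They were chosen by gene symbol, through the Ensembl identifier of each row, and all 10 were found among the 47069 distinct identifiers of the expression table. All 10 passed the filter on low values that left 18319 genes for testing, Hapln2 only through its level in P7 spinal cord.

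Total RNA was sequenced from Pdgfra/GFP+ cells, sorted by their green fluorescence from the knock-in strain Pdgfra-H2BGFP. These mice make a nuclear histone H2B-GFP fusion from the promoter of Pdgfra, a receptor gene that marks oligodendrocyte precursor cells (OPCs). The 12 libraries form 4 groups of 3, with each of brain and spinal cord sampled at an embryonic age (E13.5) and at a postnatal age (P7, day 7 after birth). All animals were heterozygous for the reporter, so every group carried 1 modified Pdgfra allele. Brain tissue was forebrain, each library was made from a pool of cells from several animals of both sexes, and at P7 only brightly fluorescent cells were kept. GFP protein outlasts Pdgfra expression, so cells in early differentiation can remain in the gate, and perivascular cells that express Pdgfra also carry it. Embryos were dissociated by mechanical means and P7 pups with papain, so age and dissociation cannot be told apart. The p-values below rest on the spread between pools, estimated once per gene over all 4 groups and not for each age or region. In such bulk samples fewer cells of a type and less RNA per cell cannot be told apart.

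Lecticans are secreted proteoglycans that bind hyaluronan, a long sugar polymer, at the amino end and tenascins at the carboxyl end. Link proteins clamp a lectican to hyaluronan, and the branched tenascins join several lecticans, so that together these proteins make a net around cells. In the brain the embryonic net is known to be looser and richer in versican and tenascin-C, and the adult net to be denser and richer in aggrecan, brevican and tenascin-R. NG2 is a classical surface marker of OPCs, and these cells are known to secrete matrix that surrounds axons at nodes of Ranvier, where Hapln2 (also called Bral1) is found.

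The libraries held 12566345 to 38790312 reads assigned to genes. In E13.5 spinal cord replicate 3 protein-coding genes held 41.0% of the reads, against 82.4% to 91.2% in the other 11, and its log2 values lay farther from those of its group (SD of the log2 ratio 0.77 and 0.72 with replicates 1 and 2) than those 2 did from each other (0.17, over 2046 genes). In P7 brain and P7 spinal cord, replicates 1 and 2 were closer to each other (SD 0.071 and 0.061) than either was to replicate 3 (0.20 to 0.24). Values are in CPM, meaning counts scaled to a common library size. The scaling factor of the library size was 0.47 in E13.5 spinal cord replicate 3 and 0.95 to 1.20 in the other 11. A lower factor gives more CPM per read. The 5 OPC markers Pdgfra, Olig1, Olig2, Sox10 and Lhfpl3 summed to 439.5 to 1119.9 CPM in the E13.5 libraries and to 4872 to 6210.3 CPM in the P7 libraries, and none was at 0. Markers of other cells were present too. The 7 pericyte and leptomeningeal markers (Col1a1, Col3a1 and others) summed to 5412 to 12289 CPM at E13.5 and 1167 to 2481 CPM at P7, the 7 neuronal markers to 764 to 969 and 436 to 510 CPM, and the 8 markers of radial glia and astrocytes to 696 to 1004 and 1045 to 1883 CPM. Microglial (7 genes) and endothelial (5 genes) markers summed to 15.8 to 72.0 CPM and 20.7 to 111 CPM.

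In the mouse genome (GRCm38, GENCODE M21) each of the 4 lecticans lies next to a link protein gene, with 0 protein-coding genes in between. Bcan (chr3:87987531-88000230, minus strand) and Hapln2 (chr3:88021750-88027583, minus strand) are 21.5 kb apart. Vcan (chr13:89655312-89742509, minus strand) and Hapln1 (chr13:89539796-89611652, plus strand) are 43.7 kb apart with their 3' ends facing each other. Acan (chr7:79053483-79115099, plus strand) ends 2 bases from Hapln3, and Ncan (chr8:70093085-70120873, minus strand) lies 2.22 kb from Hapln4. The remaining members are Tnr (chr1:159523769-159931729, plus strand), Tnc (chr4:63959785-64047015, minus strand), Cspg4 (chr9:56865033-56899870, plus strand) and Cspg5 (chr9:110243783-110262576, plus strand). Tnr shares 443 exon bases with the antisense gene Gm38039 (0.091 CPM on average) and Tnc shares 176 with 8030451A03Rik (0.23 CPM), both far below the members themselves, and the other members share no exon base with another annotated gene.

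The 250 bases before the RefSeq transcription start (GRCm38.p6) are shown for 4 members. Bcan and Tnr were chosen because they rose with age in both regions, Hapln2 because it neighbours Bcan and rose mainly in spinal cord, and Vcan because it is the lectican that was not higher at P7. They are given 5' to 3' on the gene's strand, and capitals mark ACAAT on either strand, the core letters bound by Sox factors.
Bcan (chr3:88000357-88000606, minus strand): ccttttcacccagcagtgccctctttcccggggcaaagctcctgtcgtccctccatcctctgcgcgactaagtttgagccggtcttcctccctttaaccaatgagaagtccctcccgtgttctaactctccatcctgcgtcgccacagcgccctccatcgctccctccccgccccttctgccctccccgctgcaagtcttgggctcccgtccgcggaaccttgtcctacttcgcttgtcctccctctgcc
Tnr (chr1:159523519-159523768, plus strand): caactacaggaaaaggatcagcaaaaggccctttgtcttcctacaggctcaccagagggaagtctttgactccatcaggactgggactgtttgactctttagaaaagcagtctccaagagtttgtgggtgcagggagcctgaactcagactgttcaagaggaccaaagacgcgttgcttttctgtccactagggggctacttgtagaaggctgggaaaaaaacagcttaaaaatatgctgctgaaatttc
Hapln2 (chr3:88027512-88027761, minus strand): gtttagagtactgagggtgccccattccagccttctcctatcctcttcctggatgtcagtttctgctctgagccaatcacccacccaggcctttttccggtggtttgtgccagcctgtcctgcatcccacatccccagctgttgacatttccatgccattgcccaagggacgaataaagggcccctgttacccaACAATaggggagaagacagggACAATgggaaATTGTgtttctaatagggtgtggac
Vcan (chr13:89742513-89742762, minus strand): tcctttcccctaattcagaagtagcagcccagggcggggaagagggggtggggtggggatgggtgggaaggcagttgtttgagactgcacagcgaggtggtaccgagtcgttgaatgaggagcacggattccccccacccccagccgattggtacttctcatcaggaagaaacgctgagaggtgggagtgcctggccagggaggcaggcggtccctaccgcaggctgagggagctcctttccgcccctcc
The Hapln2 window held 3 ACAAT matches, all in the part nearest the start, and the other 3 windows held 0. The RefSeq start of Hapln2 lies inside its GENCODE M21 gene, which begins at chr3:88027583 on the minus strand. By that annotation the 3 matches lie within the gene and not upstream of it. The RefSeq table had a window for 9 of the 10 members. ACAAT occurred in the windows of 4 of these 9 genes (Hapln2, Hapln1, Tnc and Cspg4) and in 27.7% of all 32851 RefSeq windows of this length. The letters CANNTG (E-box) occurred in 5 of the 9 and 66.2% of all windows, GGGCGG (GC box) in 6 and 32.7%, and TATAAA in 2 and 12.4%, each searched on both strands. The windows ranged from 44.8% GC for the upstream of the 2 Tnc starts to 74.4% for Acan, around a median of 52.4% over all windows.

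Matrix gene expression of Pdgfra/GFP+ cells was first compared between ages. At P7 the cells had more Acan, Bcan, Ncan, Tnr, Cspg4 and Cspg5 RNA than at E13.5 in both regions, and less Tnc. A gene was called when its limma Benjamini-Hochberg adjusted p over all tested genes was under 0.05 and the change exceeded 2-fold, on the log2(CPM + 0.5) scale. In brain 8 of the 10 members were called, 6 higher and 2 lower at P7, against 27.7% of all tested genes (11.0% higher and 16.7% lower). In spinal cord 9 were called, 7 higher and 2 lower, against 35.1% (16.9% and 18.2%). The median log2 change of the members was 1.89 in brain and 4.08 in spinal cord, against -0.19 and 0.12 over all tested genes. Hapln2 entered the test through P7 spinal cord, the group where it is high, so its call in spinal cord is a description. Of the other 9 members 8 were called in each region, 6 higher and 2 lower, with medians of 2.69 and 3.73. In all 10 members the E13.5 and P7 libraries of a region did not overlap, which held for 72.6% of all tested genes in brain and 70.8% in spinal cord. After scaling by the trimmed mean of M-values (TMM) the median over all genes in brain was -0.02. The share of calls that were higher at P7 was then 49.1% in place of 39.7%. The deposited and TMM scaling factors were the same in all libraries except those of P7 brain. There the deposited factors were 1.192, 1.197 and 1.199 and the TMM factors 1.024, 1.058 and 1.060. Changes near 0.2 in brain were therefore not read as changes of a gene.

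**Figure D1:**
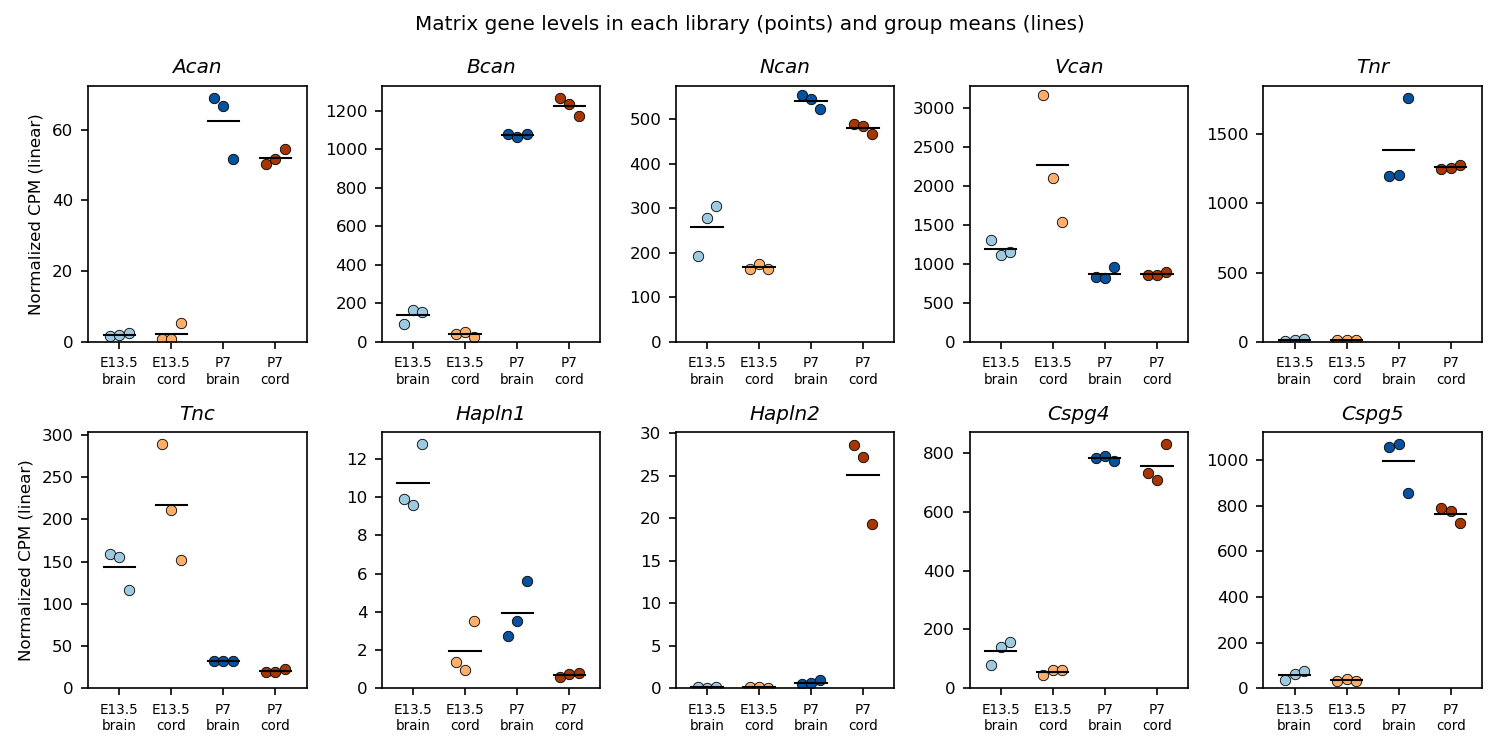
Level of each of the 10 matrix genes in normalized CPM (linear vertical axes that start at 0 and differ between panels) in the 12 libraries, with points for libraries and lines for group means. Bcan, Tnr, Cspg4 and Cspg5 reach 708 to 1759.7 CPM in all P7 libraries and stay at or under 168 CPM at E13.5, while Hapln2 exceeds 1 CPM in P7 spinal cord alone, where it is at 19.3 to 28.7.

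Bcan encodes brevican, the smallest lectican and one made largely by glia. It was at 94.1, 168 and 156 CPM in the E13.5 brain libraries and at 42.3, 50.5 and 24.6 in E13.5 spinal cord. At P7 it was at 1078, 1066 and 1082 CPM in brain and at 1267, 1238 and 1172 in spinal cord. The P7 libraries lay within 1066 to 1267 CPM whatever the region, whereas at E13.5 every brain library was above every spinal cord library. The rise was 2.99 ± 0.24 (log2, SE; limma adjusted p 4.38e-07) in brain and 5.01 ± 0.24 (3.06e-09) in spinal cord.

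Ncan encodes neurocan, a lectican of the developing nervous system that is cut by proteases after birth. Its E13.5 libraries were at 192, 277 and 306 CPM in brain and at 164, 174 and 164 in spinal cord, and its P7 libraries at 555, 546 and 523 and at 489, 485 and 468. It was therefore already abundant at E13.5 and had the smallest rise among the 6 members that rose in both regions, 1.09 ± 0.14 (log2, SE; limma adjusted p 3.03e-05) in brain and 1.52 ± 0.14 (1.07e-06) in spinal cord. Without E13.5 brain replicate 1, the lowest of its group, the change in brain was 0.89 and no longer past 2-fold.

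Acan encodes aggrecan, the large lectican of cartilage and of perineuronal nets. It was near the bottom of the range at E13.5, with 1.52, 1.93 and 2.52 CPM in brain and 0.89, 0.93 and 5.23 in spinal cord. At P7 it was at 69.0, 66.6 and 51.6 CPM in brain and 50.2, 51.6 and 54.4 in spinal cord. The rise was 4.67 ± 0.41 (log2, SE; limma adjusted p 9.30e-07) in brain and 4.54 ± 0.41 (7.53e-07) in spinal cord. The high E13.5 value of 5.23 CPM belonged to E13.5 spinal cord replicate 3. It stood for 31 reads, against 15 and 21 in replicates 1 and 2, and the scaling factor of that library was 0.47. In it the 11 cartilage markers summed to 729.6 CPM, against 271 and 287 in the other spinal cord libraries of that age and 130 to 169 in E13.5 brain. Col2a1, the main cartilage collagen, was at 544 CPM there, and Snorc was at 0. At P7 the same markers summed to 476 to 627 CPM in brain and 1186 to 1241 in spinal cord, carried by Col9a3 and Col11a2, while the cartilage genes Comp, Snorc and Chad stayed at or under 0.26 CPM. Of the 8 tested markers 5 were called higher and 2 lower at P7 in brain, and 4 and 2 in spinal cord. Of all tested genes 11.0% were higher and 16.7% lower in brain, and 16.9% and 18.2% in spinal cord. At P7 5 of the 8 were called lower in brain than in spinal cord, against 4.35% of all tested genes. The part of cartilage cells in the Acan values was not tested. Without that library the rise in spinal cord was 5.22.

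Vcan encodes versican, the lectican of the early, loose matrix, which is also made by mesenchymal cells. It was at 1303, 1107 and 1145 CPM in E13.5 brain and at 3159.6, 2097 and 1537 CPM in the spinal cord of that age. At P7 it was at 827, 812 and 961 CPM in brain and at 849.8, 854 and 891 CPM in spinal cord. All E13.5 libraries were above all P7 libraries, and the widest spread was that of E13.5 spinal cord. Vcan fell by 1.33 on the log2 scale in spinal cord (SE 0.23, limma adjusted p 0.00021). In brain its change of -0.45 (95% interval -0.95 to 0.05, adjusted p 0.104) did not pass. The 7 pericyte and leptomeningeal markers summed to 10673 to 12289 CPM in E13.5 spinal cord, 5412 to 8272 in E13.5 brain and 1167 to 2481 at P7, and Vcan was likewise highest in E13.5 spinal cord, then E13.5 brain, then P7. In brain 4 of these 7 markers were called lower at P7 and 1 higher, and in spinal cord all 7 were called lower, against 16.7% and 18.2% of all tested genes called lower. The part of such cells in the Vcan values was not tested.

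Tnr encodes tenascin-R, a tenascin of the central nervous system made by oligodendrocyte lineage cells and some neurons. On the fitted scale it showed the largest rise of the members in both regions. It was at 8.27, 13.6 and 17.7 CPM in E13.5 brain, with 13.2, 16.4 and 12.3 CPM for the spinal cord of that age. In P7 brain it was at 1201, 1204 and 1759.7 CPM and in P7 spinal cord at 1245, 1257 and 1277. The regions overlapped at both ages, and P7 brain replicate 3 stood above all other libraries. The rise was 6.70 ± 0.23 (log2, SE; limma adjusted p 4.44e-10) in brain, a 104-fold change on the fitted scale, and 6.45 ± 0.23 (3.48e-10) or 87.6-fold in spinal cord.

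Tnc encodes tenascin-C, the tenascin of embryonic tissue and of glial progenitors. It ran the other way. In brain it was at 159, 156 and 116 CPM at E13.5 and at 32.3, 31.8 and 32.7 at P7, and in spinal cord at 289.5, 212 and 152 CPM at E13.5 and at 19.5, 19.2 and 22.4 at P7. Every E13.5 library was above every P7 library. The fall was -2.12 ± 0.19 (log2, SE; limma adjusted p 1.00e-06) in brain and -3.34 ± 0.19 (1.07e-08) in spinal cord. Per kilobase of exon, the ratio of Tnr to Tnc went from 0.059 ± 0.031 (SD, n = 3) to 25.9 ± 5.67 in brain, and in spinal cord from 0.041 ± 0.012 to 37.5 ± 2.71.

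Hapln1, the widely expressed link protein that stabilizes aggrecan on hyaluronan, was a low gene in all groups. In brain it was at 9.88, 9.57 and 12.8 CPM at E13.5 and at 2.73, 3.54 and 5.62 at P7. The spinal cord libraries had 1.37, 0.98 and 3.54 CPM at E13.5 and 0.57, 0.74 and 0.81 at P7. It was higher in brain than in spinal cord at each age without overlap. It fell in brain by 1.37 on the log2 scale (SE 0.33, limma adjusted p 0.00315). In spinal cord its change of -0.90 ± 0.33 (adjusted p 0.0284) was under 2-fold, and the highest E13.5 value there was again that of replicate 3. That value stood for 21 reads, against 23 and 22 in replicates 1 and 2.

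Hapln2, the link protein of nodes of Ranvier in white matter, had almost no reads outside P7 spinal cord. The E13.5 libraries held 4, 1 and 2 reads in brain and 3, 4 and 0 in spinal cord, which is at or near the floor of 3 reads. P7 brain libraries held 15, 18 and 37 reads (0.45, 0.60 and 0.98 CPM), and P7 spinal cord libraries 1062, 881 and 622 (28.7, 27.2 and 19.3 CPM). All 3 P7 spinal cord libraries lay above every other library. From summed reads the level in P7 spinal cord was 163 times that of E13.5 spinal cord (exact 95% interval 79.0 to 406, counting error only) and 36.4 times that of P7 brain (28.7 to 46.9), and the level in P7 brain was 6.18 times that of E13.5 brain (2.85 to 15.9). On the fitted scale, where the 0.5 CPM pseudocount damps low genes, the changes were 5.36 ± 0.22 in spinal cord (log2, SE; limma adjusted p 1.25e-08 with no filter on low values) and 0.92 ± 0.22 in brain (0.00286), the latter under 2-fold. The brain change became a call under 8 of the alternatives tried, among them TMM scaling (1.03) and edgeR on the reads (2.75).

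The 7 markers of differentiating oligodendrocytes (Mag, Mog, Mal, Mobp, Opalin, Mbp and Ermn) summed to 10.8 to 39.1 CPM at E13.5, to 645, 657 and 1704 CPM in P7 brain, and to 7573 to 11512 CPM in P7 spinal cord. All 7 were called lower in brain than in spinal cord at P7, against 4.35% of all tested genes. Opalin was at 0 in all E13.5 spinal cord libraries. P7 brain replicate 3 had the highest sum and the highest Hapln2 of its group (0.98 CPM), and P7 spinal cord replicate 3 had the lowest sum and the lowest Hapln2 of its group (19.3 CPM). P7 brain replicate 3 also had the highest Tnr (1759.7 CPM), but its P7 regions overlapped while the marker sums did not. The part of differentiating cells in these values was not tested.

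**Figure D2:**
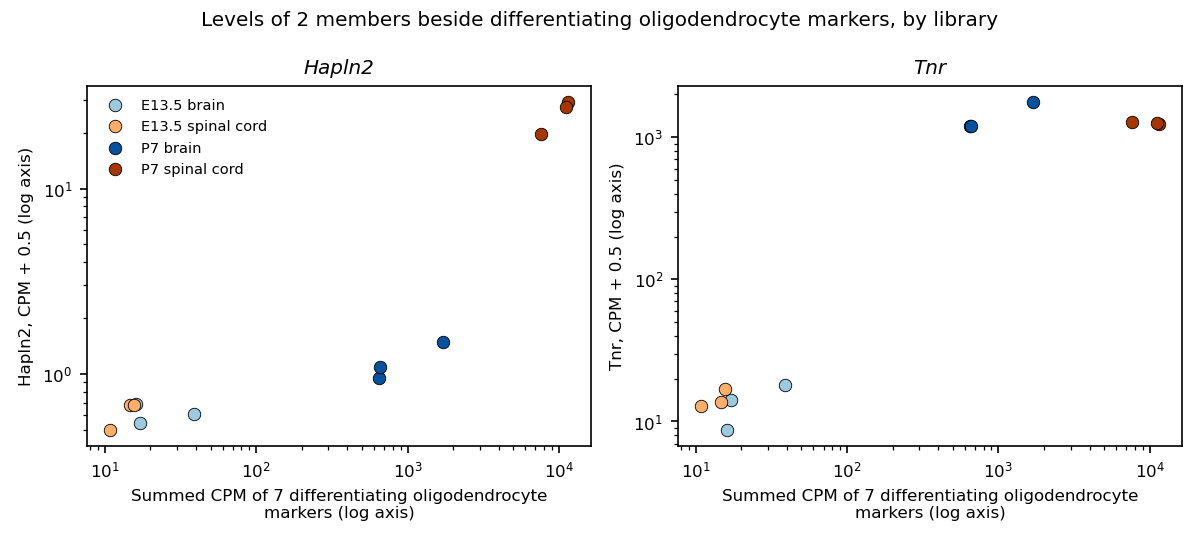
Level of Hapln2 (left) and Tnr (right) as CPM + 0.5 on a log axis against the summed CPM of 7 differentiating oligodendrocyte markers on a log axis, 1 point per library coloured by group. Hapln2 is high (19.3 to 28.7 CPM) where the sum is 7573 to 11512, whereas Tnr is as high in P7 brain (sum 645 to 1704) as in P7 spinal cord.

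Cspg4 encodes NG2, the membrane-spanning proteoglycan used to recognise OPCs and pericytes. It was at 80.1, 140.4 and 157 CPM in E13.5 brain, above the 46.9, 62.8 and 60.9 CPM of the spinal cord at that age. At P7 it was at 781, 789 and 773 CPM in brain and 730.5, 708 and 830.02 in spinal cord, so that the P7 regions overlapped and the E13.5 regions did not. The rise was 2.69 ± 0.21 (log2, SE; limma adjusted p 2.45e-07) in brain and 3.73 ± 0.21 (8.36e-09) in spinal cord. Pericytes also make NG2, and the pericyte and leptomeningeal markers summed to less at P7 than at E13.5. Not all of them fell in brain, where 4 of the 7 were called lower at P7, 1 higher and 2 not called. In spinal cord all 7 were called lower. Of all tested genes 16.7% were called lower in brain and 18.2% in spinal cord. The part of pericytes in the Cspg4 values was not tested.

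Cspg5 encodes neuroglycan C, a membrane-spanning proteoglycan of the nervous system with an epidermal growth factor-like domain. It was at 36.8, 62.5 and 78.0 CPM in E13.5 brain, and the spinal cord of that age had 34.0, 40.5 and 31.2 CPM. At P7 it was at 1059, 1069 and 856 CPM in brain and 791, 777 and 724 in spinal cord. Its rise of 4.12 ± 0.21 (log2, SE; limma adjusted p 9.83e-09) in brain and 4.43 ± 0.21 (2.98e-09) in spinal cord was larger than that of Cspg4 in both regions, although the difference between the genes was not tested.

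Regions were then compared within each age. At E13.5 brain cells had more Bcan, Hapln1 and Cspg4 than spinal cord cells. These 3 members were called, all higher in brain, against 8.71% of all tested genes (3.53% higher and 5.17% lower). Bcan was at 139 ± 39.5 against 39.2 ± 13.2 CPM (SD, n = 3), a difference of 1.83 ± 0.24 (log2, SE; limma adjusted p 0.000123). Hapln1 differed by 2.32 ± 0.33 (adjusted p 0.000207) and Cspg4 by 1.10 ± 0.21 (0.00145). The Cspg4 difference lost its call, at 0.99, 0.91 and 0.96, without E13.5 brain replicate 2, E13.5 brain replicate 3 or E13.5 spinal cord replicate 1. The 5 OPC markers moved in the same direction, with sums of 686 to 1119.9 CPM in E13.5 brain and 439.5 to 678 in E13.5 spinal cord and 3 of the 5 called higher in brain. Their part in these differences was not tested.

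A further 4 members had an adjusted p under 0.05 at E13.5 but a difference under 2-fold. Ncan (0.60) and Cspg5 (0.68) were higher in brain and Vcan (-0.87, limma adjusted p 0.0111) and Tnc (-0.56, 0.0385) lower. Without E13.5 spinal cord replicate 3 the Vcan difference was -1.12 and was called. For Tnr the difference was -0.13 (95% interval -0.63 to 0.36) and for Acan 0.12 (-0.78 to 1.03), neither past the threshold. The Acan difference rested on the same library, since without it it was 0.80. For Hapln2 both groups held 7 reads in all, and no fold is given. The groups did not overlap in 5 members (Bcan, Ncan, Vcan, Hapln1 and Cspg4), against 37.7% of all tested genes.

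At P7 the regions differed in the link proteins Hapln1 and Hapln2, while Hapln3 and Hapln4 were not called. Of the 10 members 2 were called, Hapln1 higher and Hapln2 lower in brain, against 6.62% of all tested genes (2.27% higher and 4.35% lower). Hapln1 was at 3.96 ± 1.5 CPM in brain and 0.70 ± 0.12 in spinal cord (SD, n = 3), a difference of 1.84 ± 0.33 (log2, SE; limma adjusted p 0.00142). Hapln2 was at 0.68 ± 0.27 and 25.05 ± 5.04 CPM, a difference of -4.45 ± 0.22 (adjusted p 1.01e-06 with no filter on low values). Of the 9 members other than Hapln2, Hapln1 was the 1 called. The other members lay closer together. Each interval below uses 1 spread per gene shared by all 4 groups, E13.5 included. For Bcan the SD was 28.4% and 33.8% of the mean in E13.5 brain and spinal cord, but 0.78% and 4.01% at P7. The 95% intervals of the difference were -0.72 to 0.34 for Bcan, -0.14 to 0.48 for Ncan, -0.50 to 0.50 for Vcan, -0.65 to 1.15 for Acan, -0.38 to 0.61 for Tnr, -0.40 to 0.50 for Cspg4 and -0.09 to 0.84 for Cspg5, so with the deposited scaling a 2-fold difference lay outside the interval for all of these except Acan. Tnc was higher in brain by 0.66 ± 0.19 (adjusted p 0.0209), under 2-fold. TMM scaling raised the P7 brain values alone, and the intervals were not computed with it. The signs for Bcan and Vcan turned with TMM scaling, to 0.0027 and 0.19. With it 46.6% of all calls were higher in brain against 34.3% with the deposited scaling. The groups did not overlap in 6 members (Bcan, Ncan, Tnc, Hapln1, Hapln2 and Cspg5), against 61.7% of all tested genes.

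**Figure D3:**
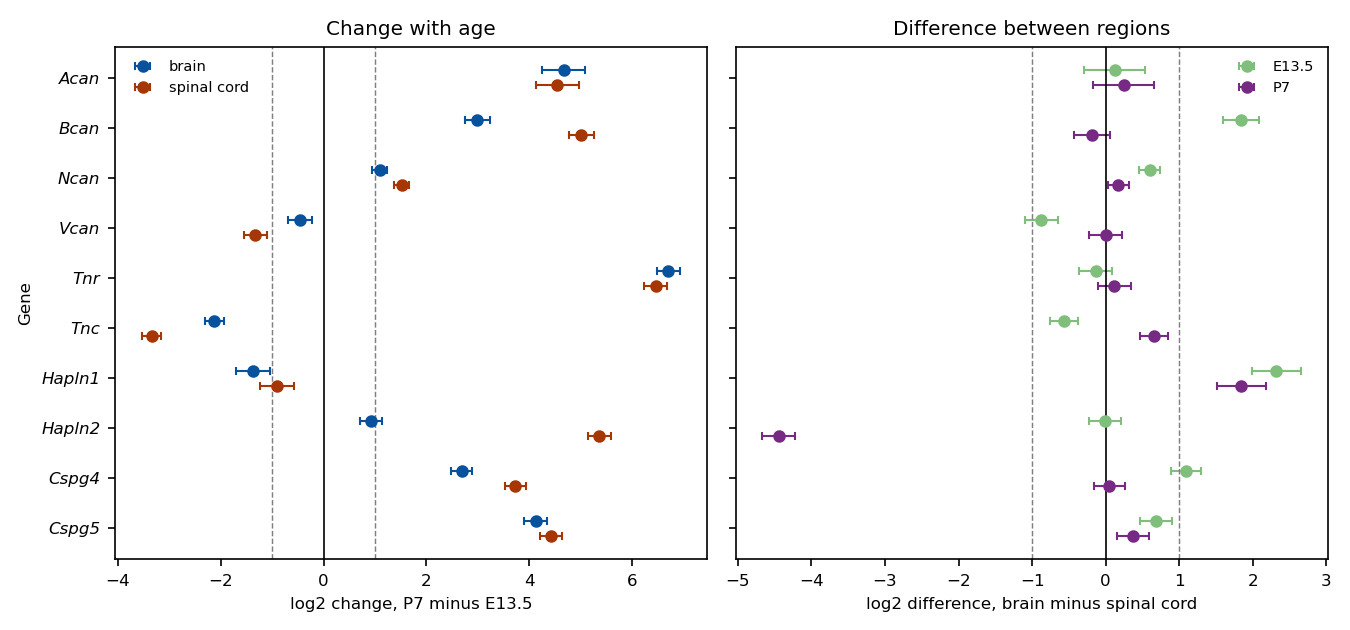
Fitted log2 change from E13.5 to P7 in brain and spinal cord (left) and log2 difference of brain minus spinal cord at E13.5 and P7 (right) for each of the 10 genes, with bars for the SE and dashed lines at 2-fold. The rises of Tnr reach 6.70 and 6.45 and Hapln2 differs between regions at P7 by -4.45, while the other P7 region differences except that of Hapln1 (1.84) lie within 2-fold.

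Whether the age change differed between the regions was tested in the same limma fit, by subtracting the brain minus spinal cord difference of E13.5 from that of P7. It was called for 4 members, 1 higher and 3 lower, against 16.3% of all tested genes (6.66% higher and 9.66% lower). Of the 9 members other than Hapln2, which entered the test through P7 spinal cord, 3 were called, 1 higher and 2 lower. Bcan rose by less in brain than in spinal cord (-2.02 ± 0.35, log2, SE; limma adjusted p 0.000697), as did Hapln2 (-4.44 ± 0.31, 1.28e-05 with no filter on low values) and Cspg4 (-1.05 ± 0.29, 0.0132). For Tnc the value was 1.22 ± 0.27 (0.00356), a smaller fall in brain. Vcan, at 0.87 ± 0.32 (0.0485), was under 2-fold. With TMM scaling Cspg4 dropped out (-0.85) and Vcan came in (1.06), so the count of 4 stayed and the genes changed, and the share of all calls that were higher went from 40.8% to 54.9%. Without E13.5 spinal cord replicate 1 Tnc was at 0.99 and Cspg4 at -0.91, which left 2 calls. Changes of Ncan (-0.43), Hapln1 (-0.48), Cspg5 (-0.31), Tnr (0.25) and Acan (0.12) did not pass.

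The region difference was smaller in size at P7 than at E13.5 for 7 of the 10 members (Bcan, Ncan, Vcan, Tnr, Hapln1, Cspg4 and Cspg5), against 52.9% of all tested genes. With TMM scaling it was so for 6 against 60.0%, with median-ratio scaling for 5 against 59.8%, and without E13.5 spinal cord replicate 3 for 9 against 58.2%. The members' share moved through the share of all genes with the setting, and no test was made of it.

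The lecticans were set side by side per kilobase of exon, the scale on which genes of unequal length can be compared. Their summed level at E13.5 was 152 ± 10.8 CPM per kb in brain and 189.8 ± 58.4 in spinal cord (SD, n = 3). At P7 it was 408 ± 4.59 and 435 ± 11.8. Versican led at E13.5 and brevican at P7. Vcan held 64.3%, 48.9% and 49.4% of the lectican sum in the E13.5 brain libraries, 86.8%, 79.8% and 78.2% in E13.5 spinal cord, and 13.2% to 16.1% in the 6 P7 libraries. Bcan went from 22.3% ± 5.12 to 64.8% ± 0.24 in brain, while in spinal cord it went from 5.14% ± 1.47 to 69.3% ± 0.90. No E13.5 library overlapped a P7 library in either share. Ncan kept a middle share of 9.04% to 26.5% throughout, and Acan stayed at or under 2.26%. The ratio of Bcan to Vcan went from 0.26 to 0.54 in E13.5 brain and 0.048 to 0.086 in E13.5 spinal cord to 4.0 to 5.31 at P7. With the longest annotated transcript as the length, Bcan held 69.1% and 73.1% at P7 in brain and spinal cord.

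**Figure D4:**
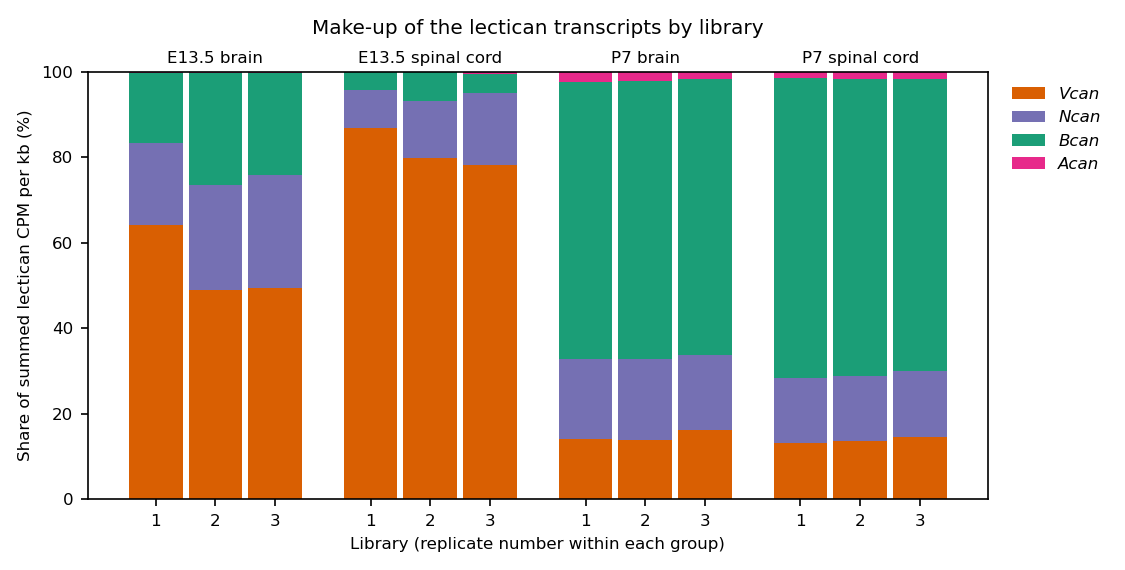
Share of each lectican in the summed lectican level (CPM per kb of exon, in percent, linear axis from 0 to 100), 1 stacked bar per library. Vcan takes 48.9% to 86.8% of each E13.5 bar and 13.2% to 16.1% of each P7 bar, and Bcan takes the largest part (64.6% to 70.0%) at P7.

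Over all 10 members the order of levels per kilobase changed between the ages. In E13.5 brain Vcan was highest at 82.0 CPM per kb, followed by Ncan (35.9) and Bcan (34.3), whose libraries overlapped, and by Tnc (18.5). E13.5 spinal cord had Vcan (157), then Tnc (28.0) and Ncan (23.3), which overlapped, and Bcan (9.64). In P7 brain Bcan was highest at 265 CPM per kb, followed by Tnr (108) and Cspg5 (98.7), which overlapped, by Ncan (75.2), and by Cspg4 (65.5) and Vcan (59.9), which overlapped. P7 spinal cord had the same first 6 places, at 302, 97.9, 75.8, 66.8, 63.4 and 59.8, where Cspg4 overlapped both Ncan and Vcan. Hapln2 was last in 3 groups (0.048 to 0.29 CPM per kb) and took the seventh place in P7 spinal cord (10.6), where Hapln1 was last (0.12). With the longest transcript as the length, Bcan moved above Ncan in E13.5 brain, Cspg5 moved above Tnr and Cspg4 above Ncan in P7 brain, and Cspg4 and Vcan both moved above Ncan in P7 spinal cord.

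For each member the 3 tested genes with the most alike pattern were found by the root mean square difference of log2(CPM + 0.5) over the 12 libraries after centring each gene. The closest to Bcan were Atp10b and Asrgl1 (0.28 each) and Olig2 (0.29), to Cspg4 Prkg2 and Etv4 (0.20 each) and Olig1 (0.23), and to Cspg5 Luzp2 (0.23), Timp4 (0.26) and Mfsd2a (0.27). Closest to Hapln2 were Cldn14 (0.26), Tmem182 and Trf (0.34 each). Tnc had Foxp2 (0.16), Arhgef5 and Foxp1 (0.18 each) nearest, Vcan had Cacna1c (0.16), Antxr1 and Ezh1 (0.17 each), and Ncan had Astn1 (0.12), Arhgap35 and Rimbp3 (0.13 each). Acan was most like Matn4 (0.24), S100a13 (0.31) and Pcdh20 (0.38). Nearest to Hapln1 were Aqp1 (0.37), Htr1f (0.44) and Slc6a17 (0.46), and nearest to Tnr were Vxn (0.34), Tmem255b (0.50) and Amz1 (0.57).

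Genes of the same pathway were described from fixed lists, each to be read against all tested genes, of which 27.7% were called with age in brain, 35.1% with age in spinal cord and, between the regions, 8.71% in embryos and 6.62% in P7 pups. Of the other link proteins and tenascins, 3 were tested. All 3 were called higher at P7 in brain and 2 in spinal cord, with a median log2 change of 2.13 and 2.51. Hapln3, the neighbour of Acan, was at 3.95 ± 0.205 CPM (SD, n = 3) in E13.5 brain and reached 19.0 ± 1.75 at P7 (2.13), and in spinal cord it was at 3.59 ± 0.945 and reached 31.05 ± 0.665 (2.98). Hapln4, the neighbour of Ncan and a link protein of perineuronal nets, was at or under 0.17 CPM at E13.5 and reached 1.45 and 3.08 CPM at P7. It passed the filter on low values through P7 libraries alone, so its calls with age are a description. Its change in spinal cord is the 2.51 given above as the median. Tnxb, a tenascin of connective tissue, was lower in brain than in spinal cord at E13.5 by -3.02 ± 0.37 (log2, SE; limma adjusted p 6.24e-05).

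Of 14 enzymes that build the chondroitin sulfate chain, 2 rose and 2 fell in brain and 3 rose and 2 fell in spinal cord. These counts are near the share of all tested genes (27.7% and 35.1%), and the list's median change was 0.096 and 0.065. Those that rose most were Csgalnact1, which starts the chain's repeating part, by 3.44 ± 0.17 in brain and 2.91 ± 0.17 in spinal cord (log2, SE; limma adjusted p 7.55e-09 and 1.57e-08), and Xylt1, which attaches the first sugar to the protein, by 1.79 and 2.76. At E13.5 Xylt1 was higher in brain by 1.52 ± 0.22 (adjusted p 0.000229) and Csgalnact1 lower (-1.31), the 2 calls of this list at that age. At P7 the 1 call was Chsy3, which lengthens the chain, lower in brain (-1.13), and with TMM (-0.95) or median-ratio scaling (-0.92) it was under 2-fold. Among 7 sulfotransferases 4 rose and 1 fell in brain and 3 rose and 1 fell in spinal cord, with a median change of 1.60 and 0.097. They included Ust, which sulfates uronic acid (2.47 and 2.76), and Chst11, a chondroitin 4-sulfotransferase (2.18 and 2.61). Chst7, a 6-sulfotransferase, was at 9.96 ± 0.46 CPM (SD, n = 3) in P7 brain against 1.86 ± 0.44 in the spinal cord and was the 1 sulfotransferase called between regions at P7 (2.17).

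Of 9 tested genes for hyaluronan synthesis, breakdown and binding, none rose and 4 fell in brain, and 1 rose and 3 fell in spinal cord. Of all tested genes 11.0% rose and 16.7% fell in brain and 16.9% and 18.2% in spinal cord, and the list's median change was -0.68 and -0.39. Has3, a hyaluronan synthase, fell in brain from 6.07 ± 1.19 to 0.94 ± 0.30 CPM (SD, n = 3), and in spinal cord from 3.30 ± 0.41 to 0.68 ± 0.05. Cemip2, a surface hyaluronidase, was at 83.2 ± 30.3 CPM in P7 brain against 387 ± 103 in the spinal cord, a difference of -2.23 ± 0.23 (log2, SE; limma adjusted p 2.13e-05). Hyal1, a lysosomal hyaluronidase, fell by 2.17 in spinal cord. At E13.5 it was lower in brain (-1.18) and Hmmr, a hyaluronan-binding protein also involved in cell division, was higher (1.13), and no other gene of the list was called.

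Proteases that cut lecticans and their inhibitors moved in both directions, with 3 of 11 higher and 3 lower in brain and 4 and 4 in spinal cord, against 27.7% and 35.1% of all tested genes called in either direction. The list's median change was 0.083 and 0.65. Adamts4, which cuts aggrecan and brevican, was at 15.7 ± 1.24 CPM (SD, n = 3) in brain and 11.9 ± 0.89 in spinal cord at E13.5, and at 49.8 ± 28.9 and 400.2 ± 72.3 at P7. It was lower in P7 brain than in P7 spinal cord by -3.12 ± 0.28 (log2, SE; limma adjusted p 7.61e-06), and its range of 31.3 to 83.2 CPM in P7 brain did not meet that of 317 to 446 in P7 spinal cord. Timp4, a metalloproteinase inhibitor, rose by 4.13 and 4.98, and Adamts15, another lectican-cutting protease, fell by 3.18 in brain. At E13.5 Adamts1 was lower in brain (-1.23), though under 2-fold without E13.5 brain replicate 2 (-0.997). Adamts8 was higher (1.06), but under 2-fold with median-ratio scaling (0.986), with a pseudocount of 1 (0.956), and without E13.5 brain replicate 3 (0.989) or E13.5 spinal cord replicate 1 (0.854).

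Receptors and binding partners had 5 of 15 higher and 2 lower with age in each region, against 11.0% higher and 16.7% lower of all tested genes in brain and 16.9% and 18.2% in spinal cord. Their median change was -0.044 and 0.051. Cntn1, an axonal and glial adhesion protein that binds tenascin-R, rose in brain from 169 ± 61.2 to 2104 ± 169 CPM (SD, n = 3), and in spinal cord from 78.6 ± 24.5 to 3020.1 ± 72.5. Nfasc, the neurofascin of nodes and of the glial side of the paranode, rose by 3.03 and 4.78 and was lower in P7 brain than in P7 spinal cord by -2.03 ± 0.29 (log2, SE; limma adjusted p 0.000259). Ptprz1, a receptor phosphatase that carries chondroitin sulfate, was higher in brain at E13.5 (756 ± 258 against 224 ± 90.7 CPM, a difference of 1.79 ± 0.32, adjusted p 0.00104), and 3 of the 15 were called higher and 1 lower there. At P7 1 was higher and 3 lower, among them Itga9, an integrin subunit that binds tenascin-C (-1.96). Of 20 other proteoglycans 4 rose and 10 fell in brain and 4 rose and 12 fell in spinal cord, with a median change of -0.66 and -1.87. Lum, lumican of connective tissue, fell by 4.34 and 4.13, Gpc3 fell by 2.97 in spinal cord, and Gpc5, a glypican, rose in brain by 5.50 to 90.8 ± 15.9 CPM. At E13.5 8 of these 20 were lower in brain and 1 higher, led by Spock1 (-2.24) and Fmod (-2.05). At P7 5 were higher and 2 lower in brain, led by Gpc5 (2.53) and Ogn (1.45), and Ogn lost its call without P7 spinal cord replicate 1 (1.16) or 2 (1.25) and with P7 replicates 1 and 2 averaged (1.23). The pericyte and leptomeningeal marker sums were likewise lower in brain at E13.5 (5412 to 8272 against 10673 to 12289 CPM), and their part in these counts was not tested.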

How the data were processed

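Total RNA-seq of Pdgfra/GFP+ cells gave 12 libraries in 4 groups of 3, grouped by sample title. Per the methods, reads from a strand-specific kit were mapped with STAR 2.5.0a to mm10 and counted per GENCODE M8 gene with featureCounts 1.5.0-p1. Multi-mapping reads were split fractionally and rounded, and the sources used here do not say if strand was used in counting. HISAT2 2.0.5 and StringTie 1.3.1c are also named in the submitters' processing notes. The authors deposited a signal table of 47072 rows of CPM, each count divided by a scaled library size, without a log; 3 columns sum to more than plain CPM allows. The planned unit was plain CPM, and the reads behind every value could be recovered (100% whole within 0.1 read).

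A floor of 0.7 CPM in 3 or more libraries left 18319 genes, tested with limma 3.58.1 (R 4.3.3) with an intensity trend on log2(CPM + 0.5), 1 mean per group, in place of the study's voom. A gene was called at a Benjamini-Hochberg adjusted p under 0.05 and more than 2-fold. Such folds understate changes of low genes. The floor of 3 reads was 0.079 to 0.51 CPM, and intervals cover counting error only. On simulated counts 93% of 200 genes changed 4-fold among 18319 were recovered for P7 minus E13.5 in brain, with 0 unchanged genes called. The simulation gave every gene the same dispersion and held no outlying library, so these rates need not hold for the data. Symbols came from GENCODE M21 (46574 of 47069 identifiers), lengths were unions of its exons, and promoter windows came from RefSeq.

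All members were named in each comparison, with the 2 called genes of largest change per pathway list. The members and lists were chosen with earlier results of these data known. The alternatives were pseudocounts of 0.1 and 1, a filter of 2 CPM or none, TMM and median-ratio scaling, limma-voom and edgeR 4.0.16 on the recovered reads, only the groups compared, a replicate block, averaging P7 replicates 1 and 2, leaving out each library, and the longest transcript as length. Protein sequences were not used here, and 1 marker of differentiating oligodendrocytes is not reported here.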

Additional observations from a re-analysis of the deposited data

Results flagged for a closer look

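The change from E13.5 to P7 differed between brain and spinal cord for 4 members by limma's test of the difference itself. Expressed as the age change in brain minus that in spinal cord (log2), it was -2.02 ± 0.35 (SE) for Bcan, with means of 139 and 1075 CPM in brain at E13.5 and P7, and of 39.2 and 1226 in spinal cord. For Hapln2 it was -4.44 ± 0.31, with 25.05 CPM in P7 spinal cord and under 1 CPM in the other groups. Hapln2 entered the test through P7 spinal cord, and without it 3 of 9 members were called. The value for Tnc was 1.22 ± 0.27, with 143.5 and 32.3 CPM in brain, and 217.5 and 20.4 in spinal cord. For Cspg4 it was -1.05 ± 0.29, with 126 and 781 CPM in brain, and 56.8 and 756 in spinal cord. Benjamini-Hochberg adjusted p-values were 0.000697, 1.28e-05 (Hapln2, with no filter on low values), 0.00356 and 0.0132. Member values were not searched for single outlying libraries by a gap test, which needs at least 4 libraries in a group.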

How the results depend on the processing

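The number of members called ranged over all alternatives from 8 to 9 (P7 minus E13.5 in brain), 9 to 10 (in spinal cord), 2 to 4 (region at E13.5) and 2 (region at P7). For the change of the region difference it was 4, and 2 to 5 when single libraries were left out, the lowest being without E13.5 spinal cord replicate 1. With the replicate block the counts were 8, 9, 3, 2 and 4, as without it. Same-numbered brain and spinal cord libraries correlated by 0.31, 0.08 and 0.41 at E13.5 and by 0.01, 0.02 and 0.04 at P7, so the pairing was not taken as established, and E13.5 brain replicate 2 correlated best with E13.5 spinal cord replicate 1. Of the members' single results, 1083 kept direction and side of the threshold, 18 came past it, 13 fell short of it and 26 turned sign, and none of those 26 had been called. The turned signs were as follows (log2). Those with TMM scaling came with changed scaling factors in P7 brain alone. The voom and edgeR fits used the same TMM factors, so they are not checks separate from TMM scaling. The cause of the other turned signs was not tested. For brain minus spinal cord at P7 Bcan was at 0.0027 with TMM scaling, 0.039 with median-ratio scaling, 0.0033 with voom and 0.0021 with edgeR, and Vcan at 0.19, 0.23, 0.19, 0.19 and, with P7 replicates 1 and 2 averaged, 0.027. Leaving out single libraries gave -0.077 to 0.044 for Vcan and -0.067 to 0.21 for Tnr. For brain minus spinal cord at E13.5 leaving out libraries gave -0.22 to 0.80 for Acan, -0.37 to 0.16 for Tnr and -0.15 to 0.079 for Hapln2, and a pseudocount of 0.1 gave 0.053 for Hapln2. For the change of the region difference voom gave -0.16 for Acan and median-ratio scaling 0.0064 for Cspg5, and leaving out libraries gave -0.55 to 0.47 for Acan and -0.039 to 0.49 for Tnr. Cspg4 lost its call there under TMM (-0.85), median-ratio scaling (-0.73), voom (-0.88) and edgeR (-0.91), and Vcan gained one (1.06, 1.19, 1.02 and 1.13). Hapln1 in spinal cord was called as lower at P7 with a pseudocount of 0.1 (-1.17) and edgeR (-1.20). With median-ratio scaling 50.1% of all calls in brain were higher at P7, 49.2% of the region calls at P7 were higher in brain and 63.8% of the changes of the region difference were higher. Hapln1, Hapln2 and, at E13.5, Acan were limited by depth.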
